A study of Mus musculus with 15 samples.

Results

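A set of 10 genes of the WNT pathway was followed across jaw primordia of mouse embryos. They were the R-spondin genes Rspo1, Rspo2 and Rspo3, the Dickkopf genes Dkk1, Dkk2 and Dkk3, the Frizzled-related genes Sfrp1, Sfrp2 and Frzb, and Axin2. Every probe set, the group of short probes that reads 1 transcript, was taken if its only gene symbol was 1 of these names. This gave 20 probe sets for 10 genes, out of 45101 probe sets and 18193 genes with a single-symbol probe set on the array. Of the 20, 19 passed the filter on low signals, and 1443187_at of Rspo3 did not. All 10 genes kept at least 1 probe set, and each gene was represented by its brightest kept probe set.

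WNT proteins signal through Frizzled receptors and their co-receptors LRP5 and LRP6, and in the canonical branch this stabilizes β-catenin, which then acts on transcription. R-spondins raise the response of a cell to WNT by binding LGR receptors and the ubiquitin ligases RNF43 and ZNRF3, which otherwise remove Frizzled from the cell surface. DKK1 blocks the co-receptors, and SFRP proteins and FRZB bind WNT through a domain like that of Frizzled. AXIN2 is part of the complex that degrades β-catenin and is itself transcribed in response to WNT.

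The tissue was the first branchial arch of embryos at stage E10.5, whose mandibular and maxillary branches build the lower and the upper jaw. Dlx5 and Dlx6 encode homeodomain proteins that are known in mice for giving the lower jaw its identity. The 15 arrays formed 5 groups of 3, namely Dlx5/6 mutant mandibular (labelled 5_6_MNA), KO maxillary (KO_MXA), WT mandibular (WT_MNA), WT maxillary set 2 (WT_MXA2) and WT maxillary set 1 (WT_MXA). The label of the KO group named no gene, and a text shared by all samples spoke of Dlx5/6 mutants and of mutants of dlx2 and of dlx1/2. The labels gave no allele, strain or promoter for any mutant and nothing that distinguishes the WT maxillary sets. The shared text was a plan that expected several arches to be pooled for an array. Whether the 3 arrays of a group were biological replicates was not stated, so each p-value reflects array-to-array spread, which may be technical.

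Signals are deposited intensities on a linear scale, and the 40th percentile of an array, the level of the filter, lay between 16.2 and 21.7. Log2 changes are differences of normalized log2(signal + 32), which understates the change of dim probe sets. The ± after a log2 change is its SE, and adjusted p-values come from limma over 31643 probe sets. Where groups are said not to overlap, the share of all genes without overlap was not counted. With so few arrays per group, such a separation can arise by chance. In the Dlx5/6 mutant mandibular arrays Dlx5 averaged 10.9 ± 2.97 and Dlx6 3.32 ± 1.52, against 727 ± 40.5 and 249.6 ± 51.3 in WT mandibular arrays (SD, n = 3). In the KO maxillary arrays Dlx2 averaged 3.36 ± 0.18 and Dlx1 209 ± 11.7, against 422 ± 20.1 and 711 ± 30.8 in WT maxillary set 2. Prrx1, a gene of first arch mesenchyme, averaged 2683 to 3471 over the 5 groups. Of 4 genes that mark more posterior arches, Hoxa2 and Hoxb3 stayed below the filter. Hoxb2, which passed it, averaged 45.9 ± 22.1 in Dlx5/6 mutant mandibular arrays, 28.7 ± 7.72 in WT mandibular arrays and 10.97 ± 7.91 in WT maxillary set 1 (SD, n = 3). It averaged 16.2 ± 10.6 in KO maxillary arrays, against 5.70 ± 5.92 in WT maxillary set 2. The summed signal of Hoxb2 and Hoxa3 reached at most 87.1 on any array, and neither was called in the main comparisons, although Hoxb2 was called higher in both mandibular groups than in WT maxillary set 2.

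The arrays came in a pair of sets that the groups do not cross. The bacterial dap spike-in read 3985 to 4469 on the 6 KO maxillary and WT maxillary set 2 arrays, and 496.4 to 582.5 on the other 9. KO maxillary was therefore compared with WT maxillary set 2, and WT mandibular with WT maxillary set 1. The WT maxillary sets themselves, set 2 against set 1, differed in 9.10% of genes, and there the set of arrays and the tissue sample cannot be told apart. Of the 10 WNT genes, Axin2 was the only one called between them.

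Promoter windows from RefSeq matched 6 of the 10 genes, Rspo1, Dkk1, Dkk2, Sfrp2, Frzb and Axin2. They span 250 bases before to 50 bases after the gene start in GRCm38.p6 and are written 5′ to 3′ along the gene. The windows of Dkk1 and Dkk2 are printed because both genes were higher in the WT mandibular branch and lower in its Dlx5/6 mutant. That of Sfrp2 is printed because the gene moved the other way, and that of Axin2 because it is a common readout of canonical WNT signalling. Dkk1 is at chr19:30549447-30549746 on the minus strand, Dkk2 at chr3:132085042-132085341, Sfrp2 at chr3:83766071-83766370 and Axin2 at chr11:108920099-108920398, all but Dkk1 on the plus strand. Capitals mark matches to the motifs searched.
Dkk1: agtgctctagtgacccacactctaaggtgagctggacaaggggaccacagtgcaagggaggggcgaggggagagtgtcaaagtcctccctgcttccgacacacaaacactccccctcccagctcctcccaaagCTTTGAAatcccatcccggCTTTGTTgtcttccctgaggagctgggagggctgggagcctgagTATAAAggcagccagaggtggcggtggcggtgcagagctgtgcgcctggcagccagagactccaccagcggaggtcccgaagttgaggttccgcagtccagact
Dkk2: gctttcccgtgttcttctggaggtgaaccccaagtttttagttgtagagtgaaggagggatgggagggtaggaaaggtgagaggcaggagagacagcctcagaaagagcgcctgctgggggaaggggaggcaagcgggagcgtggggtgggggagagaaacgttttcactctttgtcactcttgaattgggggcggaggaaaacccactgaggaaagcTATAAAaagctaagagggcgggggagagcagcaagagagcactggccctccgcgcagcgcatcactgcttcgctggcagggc
Sfrp2: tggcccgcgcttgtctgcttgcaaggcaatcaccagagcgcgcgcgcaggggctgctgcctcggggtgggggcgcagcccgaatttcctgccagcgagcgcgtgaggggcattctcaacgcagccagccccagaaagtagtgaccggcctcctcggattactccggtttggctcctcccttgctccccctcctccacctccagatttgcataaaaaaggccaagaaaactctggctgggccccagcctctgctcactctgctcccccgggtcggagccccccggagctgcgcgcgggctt
Axin2: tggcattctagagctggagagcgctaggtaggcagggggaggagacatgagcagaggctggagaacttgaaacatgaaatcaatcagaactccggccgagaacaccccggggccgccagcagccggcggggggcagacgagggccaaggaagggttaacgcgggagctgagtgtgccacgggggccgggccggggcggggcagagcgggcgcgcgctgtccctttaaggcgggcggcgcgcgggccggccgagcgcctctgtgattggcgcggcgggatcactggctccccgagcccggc

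The motifs were the TATA box core TATAAA on the strand of the gene, the TCF/LEF core CTTTG followed by AA or AT or by TA or TT, on both strands, and the homeodomain cores TAATTA and TAATTG on both strands. No motif overlapped another. TATAAA was present in the windows of Dkk1, 54 bases before the start, and of Dkk2, 32 bases before it. This motif was in 8.32% of 32851 promoter windows of the same length. Dkk1 also held CTTTGAA 117 bases and CTTTGTT 98 bases before its start, and 16.9% of windows held at least 1 TCF/LEF core. The homeodomain cores were in 12.4% of windows and in 0 of the 6. These matches describe letters in a window and were not read as binding sites.

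The WNT genes split into opposite groups along the jaw axis. Rspo2, Dkk1 and Dkk2 were higher in the WT mandibular than in the WT maxillary branch, and Sfrp2, Rspo3 and Rspo1 were lower. In the Dlx5/6 mutant mandibular branch Rspo2, Dkk1, Dkk2 and Frzb fell, and Sfrp2, Rspo3 and Rspo1 rose, relative to WT mandibular. In the KO maxillary branch Rspo2 and Axin2 fell relative to WT maxillary set 2, and none of the others passed the test.

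Between WT mandibular and WT maxillary set 1, 6 of the 10 genes were called, against 3.56% of all 13934 genes, with 3 higher (1.56% of all genes) and 3 lower (2.00%). Against WT maxillary set 2, where 11.5% of all genes were called, WT mandibular differed by 0.90 in Rspo2, 1.38 in Dkk1, 0.75 in Dkk2, 0.22 in Frzb, -1.03 in Sfrp2, -1.05 in Rspo3, -0.71 in Sfrp1 and -0.50 in Rspo1, each called by limma. In the Dlx5/6 mutant 7 of 10 were called, against 3.16% of all genes, with 3 higher and 4 lower (1.58% of all genes in each direction). In the KO maxillary branch 2 of 10 were called, against 1.26%, and both were lower (0.617% of all genes). The median log2 change of the 10 genes was close to 0 in each comparison, at -0.009, -0.122 and -0.06, beside 0.004, -0.008 and -0.002 for all genes. By probe set the counts were 11 of 19 (2.64% of all probe sets), 11 of 19 (2.66%) and 2 of 19 (0.913%). The genes had been chosen with results of these arrays known, so these counts describe the group and are no independent evidence about it. The comparisons with Dlx5/6 mutant and with WT maxillary set 1 both used the 3 WT mandibular arrays, so opposite signs in them are not independent either.

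**Figure D1:**
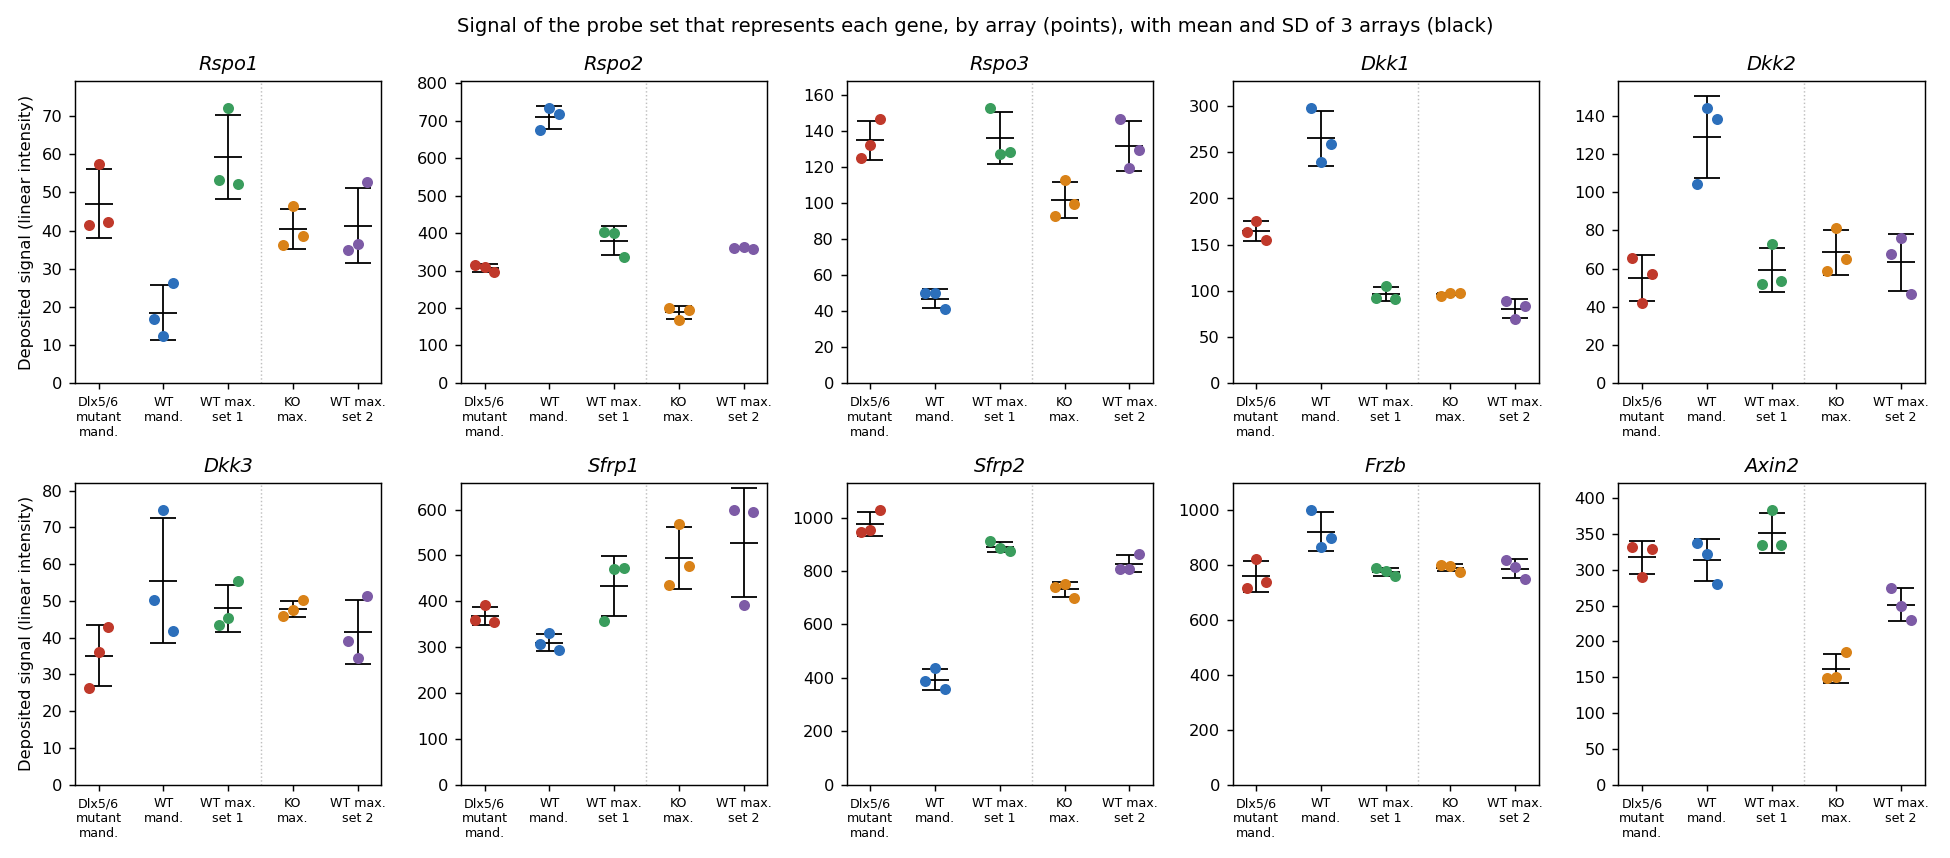
Deposited linear intensity of each gene's brightest kept probe set on each of the 15 arrays. Points are arrays, lines are group means with SD (n = 3), each y axis starts at 0 and has its own range, and a dashed line separates the groups of the 2 array sets. Rspo2, Dkk1 and Dkk2 are highest in WT mandibular arrays, and Rspo1, Rspo3 and Sfrp2 are lowest there.

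Rspo2 encodes the R-spondin that is known to be needed for limb, lung and craniofacial development in mice. Its probe set 1455893_at read 314, 310.0 and 296 in Dlx5/6 mutant mandibular arrays, 676, 733 and 718 in WT mandibular arrays, and 403, 401 and 335 in WT maxillary set 1. It read 201, 169 and 195 in KO maxillary arrays, against 359.8, 362 and 357 in WT maxillary set 2. All WT mandibular arrays lay above every other array, and all KO maxillary arrays lay below every other array.

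Rspo2 was higher in WT mandibular than in WT maxillary set 1 by 0.85 ± 0.09 on the log2 scale (limma adjusted p = 5.72e-07). In the Dlx5/6 mutant it fell by 1.12 ± 0.09 (limma adjusted p = 1.01e-08), a ratio of mean signals of 0.433. In the KO maxillary branch it fell by 0.84 ± 0.09 (limma adjusted p = 3.08e-06), a ratio of 0.523. It was the only one of the 10 genes called in both mutants. The Dlx5/6 effect minus the KO effect was -0.28 ± 0.12, with a 95% interval from -0.54 to -0.03 and an adjusted p of 0.424 (limma), so a difference in size was not called. A further Rspo2 probe set, 1430104_at, read between 2.58 and 28.7 on all arrays, mostly near or below the level of the filter, and was not called in any of these comparisons. In the KO it went the other way, at 13.2, 15.8 and 28.7 in KO maxillary arrays, against 5.04, 2.63 and 3.28 in WT maxillary set 2, a log2 change of 0.46 ± 0.20 (limma adjusted p = 0.422) with no overlap.

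Rspo3 encodes an R-spondin known for its part in the formation of blood vessels in mice. Its probe set 1455607_at read 125, 132 and 147 in Dlx5/6 mutant mandibular arrays, 49.9, 49.7 and 40.8 in WT mandibular arrays, and 152, 127 and 128.04 in WT maxillary set 1. It read 92.7, 113 and 99.3 in KO maxillary arrays, against 147, 119 and 129.6 in WT maxillary set 2. The WT mandibular arrays lay below all others, and the Dlx5/6 mutant arrays overlapped both WT maxillary sets.

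Rspo3 was lower in WT mandibular than in WT maxillary set 1 by a log2 change of -1.05 ± 0.12 (limma adjusted p = 1.72e-06). It rose by 1.07 ± 0.12 in the Dlx5/6 mutant (limma adjusted p = 2.37e-06), a ratio of mean signals of 2.88. The change in the KO was -0.33 ± 0.12 (limma adjusted p = 0.261), which was not called. The groups did not overlap there, and neither did those of Sfrp2 and of the brightest Dkk1 probe set, which were not called either. The Dlx5/6 effect exceeded the KO effect by 1.40 ± 0.16 (limma adjusted p = 1.22e-05).

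Rspo1, best known as a gene of ovary development in mammals, was dim. Its probe set 1449319_at read 41.5, 57.5 and 42.3 in Dlx5/6 mutant mandibular arrays, 16.7, 12.4 and 26.3 in WT mandibular arrays, and 53.4, 72.0 and 52.3 in WT maxillary set 1. It read 36.3, 46.4 and 38.6 in KO maxillary arrays, against 34.9, 36.5 and 52.6 in WT maxillary set 2. Only the WT mandibular arrays stood apart, at about the level of the filter.

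Rspo1 was lower in WT mandibular than in WT maxillary set 1 by a log2 change of -0.81 ± 0.15 (limma adjusted p = 0.00192). It rose by 0.64 ± 0.15 in the Dlx5/6 mutant (limma adjusted p = 0.0203), but this call was lost without array 2 of the mutant (0.55, adjusted p = 0.132) and without WT mandibular array 1 (0.62, adjusted p = 0.0647) or 2 (0.56, adjusted p = 0.109). For the KO maxillary branch the change was -0.07 ± 0.15 (limma adjusted p = 0.934).

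Dkk1 encodes the secreted LRP5 and LRP6 antagonist without which mouse embryos fail to form the anterior head. Its probe set 1420360_at read 163, 176 and 155 in Dlx5/6 mutant mandibular arrays, 297, 239 and 259 in WT mandibular arrays, and 92.3, 105 and 91.4 in WT maxillary set 1. It read 94.6, 97.2 and 97.0 in KO maxillary arrays, against 89.2, 68.9 and 83.2 in WT maxillary set 2. The Dlx5/6 mutant arrays thus lay between those of WT mandibular and WT maxillary branches and overlapped neither.

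Dkk1 was higher in WT mandibular than in WT maxillary set 1 by 1.21 ± 0.11 (limma adjusted p = 7.89e-08). It fell by 0.58 ± 0.11 in the Dlx5/6 mutant (limma adjusted p = 0.00323), a ratio of mean signals of 0.621. The KO maxillary change was 0.16 ± 0.11 (limma adjusted p = 0.669). A dimmer probe set, 1458232_at, read 44.1, 35.3 and 33.0 in Dlx5/6 mutant mandibular arrays, 85.5, 75.6 and 108 in WT mandibular arrays, and 21.5, 22.0 and 18.6 in WT maxillary set 1. Its log2 changes were 1.21 ± 0.17 between the WT branches (limma adjusted p = 5.56e-05) and -0.78 ± 0.17 in the Dlx5/6 mutant (limma adjusted p = 0.0099). The call in the mutant was lost without array 3 of the mutant (-0.74, adjusted p = 0.0542) or WT mandibular array 3 (-0.69, adjusted p = 0.0698).

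Dkk2, which encodes a relative of DKK1 that binds the same co-receptors, had a single probe set, 1420512_at. It read 65.7, 41.9 and 57.1 in Dlx5/6 mutant mandibular arrays, 104, 144 and 139 in WT mandibular arrays, and 51.9, 72.7 and 53.6 in WT maxillary set 1. It read 58.7, 81.4 and 65.3 in KO maxillary arrays, against 67.5, 75.8 and 46.7 in WT maxillary set 2. Every WT mandibular array was above every other array, and the other 4 groups overlapped one another.

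Dkk2 was higher in WT mandibular than in WT maxillary set 1 by 0.81 ± 0.15 (limma adjusted p = 0.00198). It fell by 0.86 ± 0.15 in the Dlx5/6 mutant (limma adjusted p = 0.00135), a ratio of mean signals of 0.426. The change in the KO maxillary branch was 0.04 ± 0.15 (limma adjusted p = 0.96).

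Dkk3 encodes the most divergent Dickkopf protein, which is not an established LRP antagonist. Its probe set 1417312_at read 26.3, 36.2 and 42.8 in Dlx5/6 mutant mandibular arrays, 50.2, 74.7 and 41.7 in WT mandibular arrays, and 43.3, 45.4 and 55.3 in WT maxillary set 1. It read 45.9, 47.4 and 50.1 in KO maxillary arrays, against 39.0, 34.5 and 51.2 in WT maxillary set 2. The groups of the 3 comparisons below overlapped.

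Dkk3 was not called in any comparison, with a log2 change of -0.37 ± 0.15 in the Dlx5/6 mutant (limma adjusted p = 0.278), 0.08 ± 0.15 in the KO maxillary branch (limma adjusted p = 0.924) and 0.14 ± 0.15 between the WT branches (limma adjusted p = 0.808). Its probe set 1448669_at read 16.4 to 50 over all arrays and was not called either.

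Sfrp2 encodes a secreted protein that binds WNT ligands. Its probe set 1448201_at read 947, 956 and 1028 in Dlx5/6 mutant mandibular arrays, 386, 437 and 357 in WT mandibular arrays, and 911, 887 and 875 in WT maxillary set 1. It read 742, 753 and 701 in KO maxillary arrays, against 809, 808 and 865 in WT maxillary set 2. The Dlx5/6 mutant arrays were the highest of all and the WT mandibular arrays the lowest.

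Sfrp2 was lower in WT mandibular than in WT maxillary set 1 by a log2 change of -1.15 ± 0.07 (limma adjusted p = 1.46e-10). It rose by 1.26 ± 0.07 in the Dlx5/6 mutant (limma adjusted p = 7e-11), a ratio of mean signals of 2.48. In both comparisons its adjusted p was the smallest among the 10 genes. Relative to WT maxillary tissue, the change in the KO was -0.15 ± 0.07 (limma adjusted p = 0.487) against set 2, and -0.27 ± 0.07 (limma adjusted p = 0.0179) against set 1, where 11.6% of all genes were called.

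Sfrp1, a close relative of Sfrp2, had 5 probe sets that did not all give the same call. Its brightest, 1428136_at, read 359.6, 391 and 355 in Dlx5/6 mutant mandibular arrays, against 307, 330.1 and 293 in WT mandibular arrays and 357, 469.9 and 472 in WT maxillary set 1. It read 436, 569 and 477 in KO maxillary arrays, against 599, 391 and 594 in WT maxillary set 2. The WT mandibular arrays were the lowest, and array 2 of WT maxillary set 2 lay well below the other 2 of its group.

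Of the 5 Sfrp1 probe sets, 3 were called lower in WT mandibular than in WT maxillary set 1, and the same 3 were called higher in the Dlx5/6 mutant. The log2 changes were -0.52 and 0.41 for 1448395_at, -0.62 and 0.60 for 1416594_at and -0.65 and 0.31 for 1460187_at. Between the WT branches the call of 1448395_at was lost without WT mandibular array 2 (-0.46, adjusted p = 0.0564) or WT maxillary set 1 array 2 (-0.42, adjusted p = 0.0688). The brightest was not called, at -0.44 ± 0.13 (limma adjusted p = 0.0708) between the WT branches and 0.24 ± 0.13 (limma adjusted p = 0.427) in the mutant. Between the WT branches it was called without WT maxillary set 1 array 1 (-0.56, adjusted p = 0.023), with the compared groups fitted alone (adjusted p = 0.0471), with array weights (adjusted p = 0.0462) and against WT maxillary set 2 (-0.71, adjusted p = 0.000595, limma). The fifth, 1438620_x_at, whose suffix marks probes that can also bind other transcripts, changed by -0.30 (limma adjusted p = 0.403) and 0.05 (limma adjusted p = 0.945). In the Dlx5/6 mutant, 1416594_at kept its call without any single array. The call of 1448395_at was lost without either of 2 mutant arrays (2 and 3) or 2 WT mandibular arrays (1 and 2), at adjusted p from 0.111 to 0.251. The call of 1460187_at was lost without each mutant array and without WT mandibular array 1 or 2, at adjusted p from 0.0854 to 0.226. No Sfrp1 probe set was called in the KO maxillary branch, with log2 changes between -0.08 and 0.12.

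Frzb, also known as Sfrp3, encodes a WNT-binding protein of cartilage. Its brightest probe set 1416658_at read 714, 819 and 739 in Dlx5/6 mutant mandibular arrays, 998, 864 and 898 in WT mandibular arrays, and 788, 777 and 758 in WT maxillary set 1. It read 798, 796 and 775 in KO maxillary arrays, against 816, 790.5 and 748 in WT maxillary set 2. WT mandibular arrays were the highest, by a small margin.

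Frzb fell by 0.28 ± 0.07 in the Dlx5/6 mutant (limma adjusted p = 0.0299), and its probe set 1448424_at changed by -0.21 ± 0.09 (limma adjusted p = 0.29). The call of the brightest was lost without mutant array 1 (-0.23) or 3 (-0.265) and without WT mandibular array 1 (-0.22) or 3 (-0.29), at adjusted p from 0.0601 to 0.147. Between the WT branches the log2 changes were 0.24 ± 0.07 (limma adjusted p = 0.0832) and, for 1448424_at, 0.35 ± 0.09 (limma adjusted p = 0.03). The call of 1448424_at was lost without any of the 3 WT mandibular arrays or without WT maxillary set 1 array 1 or 2, at adjusted p from 0.0561 to 0.202. Against WT maxillary set 2 it was not called either (0.20, limma adjusted p = 0.155), whereas the brightest was (0.22, limma adjusted p = 0.0473).

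**Figure D2:**
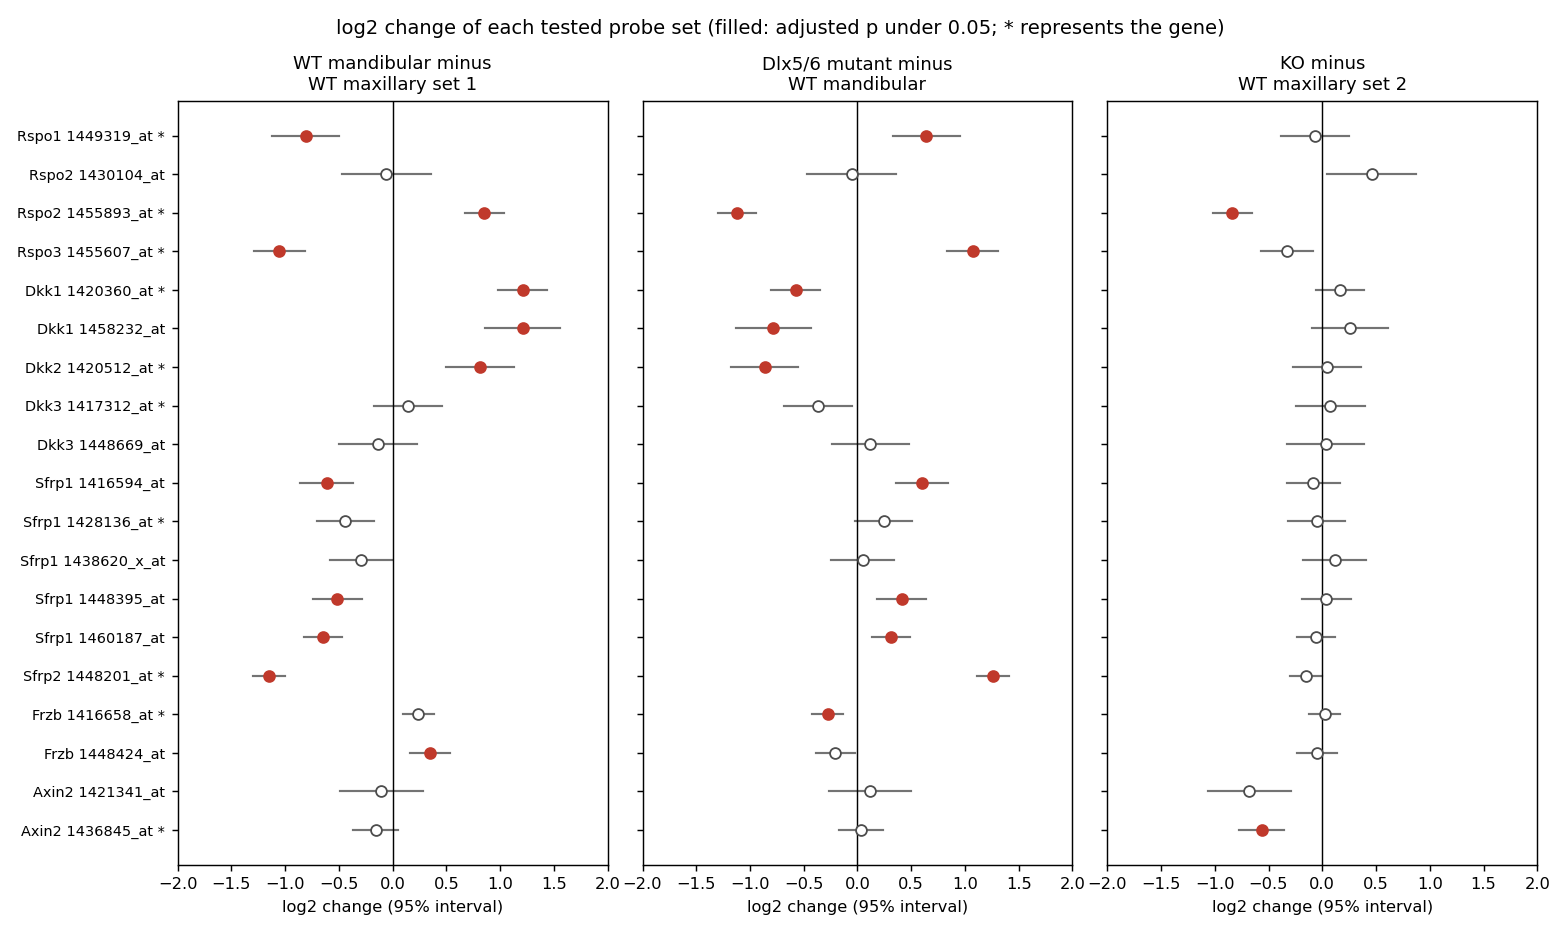
Log2 change with 95% interval for each of the 19 kept probe sets of the 10 genes, in the Dlx5/6 mutant (over WT mandibular), in the KO maxillary branch (over WT maxillary set 2) and in WT mandibular (over WT maxillary set 1). Filled points are called at an adjusted p under 0.05. The probe sets of Dkk1 all lie below 0 in the Dlx5/6 comparison and all above 0 in the WT comparison. Those of Sfrp1 differ in whether they are called.

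Axin2 is a common readout of canonical WNT signalling. Its probe set 1436845_at read 331, 290.1 and 329.5 in Dlx5/6 mutant mandibular arrays, 338, 322 and 280.4 in WT mandibular arrays, and 335, 383 and 335 in WT maxillary set 1. It read 149, 151 and 185 in KO maxillary arrays, against 275, 249.9 and 229 in WT maxillary set 2. The KO maxillary arrays were the lowest of all, and both mandibular groups overlapped.

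Axin2 changed by 0.03 ± 0.10 in the Dlx5/6 mutant, with a 95% interval from -0.17 to 0.24 (limma adjusted p = 0.945), and by -0.16 ± 0.10 in WT mandibular against WT maxillary set 1 (limma adjusted p = 0.595). The sign of the WT branch difference turned with the control, since against WT maxillary set 2 it was 0.26 ± 0.10 (limma adjusted p = 0.113) with no overlap of the arrays. In the KO maxillary branch it fell by 0.56 ± 0.10 (limma adjusted p = 0.00339), a ratio of mean signals of 0.642. The size depended on the control, since WT maxillary set 2 was itself below set 1 by a log2 change of -0.42 ± 0.10 (limma adjusted p = 0.0105), and against set 1 the KO change was -0.98 ± 0.10 (limma adjusted p = 5.91e-07). The change between the WT sets lost its call without WT maxillary set 1 array 2 (-0.36, adjusted p = 0.0602) or WT maxillary set 2 array 3 (-0.36, adjusted p = 0.0609).

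The second Axin2 probe set, 1421341_at, was dim, at 27.7, 3.48 and 12.4 in KO maxillary arrays, against 47.0, 42.5 and 29.8 in WT maxillary set 2. These groups did not overlap, and the log2 change was -0.68 ± 0.19 (limma adjusted p = 0.0977), which was not called. It was called without KO maxillary array 1 (-0.87, adjusted p = 0.0301) and against WT maxillary set 1 (-1.04, adjusted p = 0.000613).

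The Dlx5/6 mutant mandibular branch was next set against WT maxillary set 1, which asks how far its levels were from those of the upper jaw. Of the 10 genes 1 was called, against 0.782% of all genes, and it was higher (0.258%). Dkk1 remained higher in the mutant mandibular branch by 0.63 ± 0.11 (limma adjusted p = 0.00289), a ratio of mean signals of 1.71. The dimmer Dkk1 probe set 1458232_at was also higher on every mutant array, but its change of 0.42 ± 0.17 was not called (limma adjusted p = 0.446). The other log2 differences were -0.27 for Rspo2 (limma adjusted p = 0.253), 0.02 for Rspo3, 0.11 for Sfrp2, -0.05 for Dkk2, -0.17 for Rspo1, -0.04 for Frzb, -0.12 for Axin2, -0.23 for Dkk3 and -0.20 for Sfrp1. None of these passed the test. For Rspo2, Sfrp2, Dkk3 and Axin2 the arrays did not overlap, but the share of all genes without overlap was not counted. With so few arrays per group, such a separation can also arise by chance. Among the other Sfrp1 probe sets, 1460187_at had the largest difference, -0.33 ± 0.09 (limma adjusted p = 0.096). The 95% interval ran from -0.22 to 0.26 for Rspo3, from -0.04 to 0.26 for Sfrp2 and from -0.37 to 0.26 for Dkk2. These intervals are not adjusted for the number of tests, and differences outside them can also go uncalled. The interval of Rspo2, from -0.45 to -0.09, lay below 0, and its mutant arrays were all lower than the WT maxillary arrays. Against WT maxillary set 2, where 11.4% of genes were called, Dkk1 (0.81), Sfrp2 (0.23) and Sfrp1 (-0.46) were called.

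**Figure D3:**
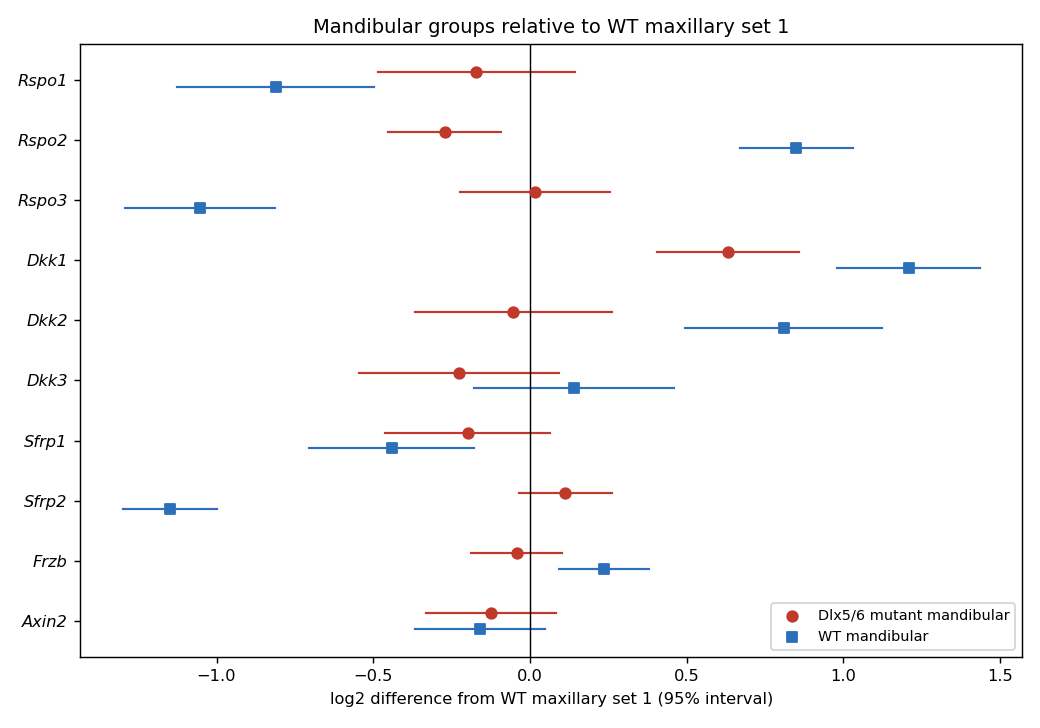
Log2 difference from WT maxillary set 1, with 95% interval, for the Dlx5/6 mutant mandibular branch (red circles, upper of each pair) and the WT mandibular branch (blue squares). The intervals of the mutant include 0 for Rspo1, Rspo3, Dkk2, Sfrp2 and others, lie above 0 for Dkk1 (0.63) and below 0 for Rspo2 (-0.27).

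The effects of the mutants were compared directly, as the Dlx5/6 effect (mutant over WT mandibular) minus the KO effect (KO over WT maxillary set 2), which share no array. The difference was called for 5 of the 10 genes, against 1.44% of all genes, and for 7 of 19 probe sets, against 1.09%. It was positive (0.682% of all genes) for Sfrp2 (1.41 ± 0.10, limma adjusted p = 4.2e-09), Rspo3 (1.40 ± 0.16, limma adjusted p = 1.22e-05) and Axin2 (0.60 ± 0.14, limma adjusted p = 0.0384). It was negative (0.754% of all genes) for Dkk1 (-0.74 ± 0.15, limma adjusted p = 0.0132) and Dkk2 (-0.91 ± 0.21, limma adjusted p = 0.0363). Those of Sfrp2, Rspo3 and Dkk1 stayed called without any single array. Those of Axin2 and Dkk2 were each lost without any of 8 of the 12 arrays, with adjusted p up to 0.121 for Axin2 and 0.123 for Dkk2. For Rspo1 the difference was 0.71 ± 0.21 (limma adjusted p = 0.155) and for Rspo2 -0.28 ± 0.12 (limma adjusted p = 0.424). The branches differed as well as the mutated genes, so mutation, branch and array set cannot be told apart in this contrast.

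**Figure D4:**
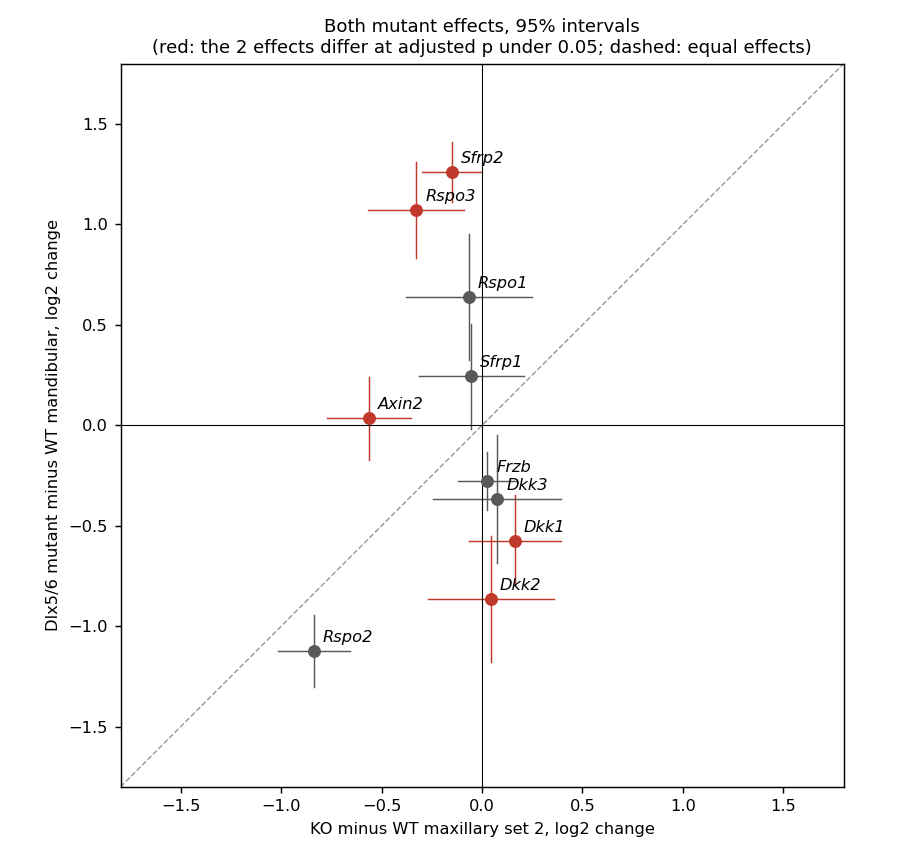
Log2 change in the Dlx5/6 mutant mandibular branch (y axis, over WT mandibular) against that in the KO maxillary branch (x axis, over WT maxillary set 2). Each of the 10 genes is drawn with bars for its 95% intervals. Red points are genes whose effects differed at an adjusted p under 0.05. Rspo2 lies low on both axes, at -1.12 and -0.84, and Axin2 lies at -0.56 on the KO axis and 0.03 on the other.

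Over the 9 arrays of Dlx5/6 mutant mandibular, WT mandibular and WT maxillary set 1, the pattern of each called gene was set against all other genes by Pearson's r of normalized log2 levels. These arrays form 3 groups, so a high r largely repeats the group means, and it is given as a description. The gene most like Rspo2 was Dlx6 (r = 0.995), which the mutant is named for together with Dlx5, followed by Bambi (0.983), which encodes a pseudoreceptor for TGF-β family ligands, and Lrp12 (0.982). The gene most like Dkk1 was Hand2 (0.982), a mandibular transcription factor, and for Dkk2 it was Plod2 (0.983), a collagen-modifying enzyme. Sfrp2 was most like Pou3f3 (0.992), a maxillary transcription factor, and Rspo3 was most like Sfrp2 (0.989). The highest r was 0.976 for Rspo1 with Slc20a1, 0.974 for Frzb with Chmp2a and 0.969 for Axin2 with Ccdc86. Over the 6 KO maxillary and WT maxillary set 2 arrays, r was above 0 for 11 of the 24 pairs of a WNT gene with 1 of its 3 most like genes, with a median of -0.032 and a range from -0.919 to 0.921. It was 0.691 for Rspo2 with Dlx6, 0.337 for Dkk1 with Hand2, 0.447 for Dkk2 with Plod2, 0.921 for Sfrp2 with Pou3f3 and 0.757 for Rspo3 with Sfrp2. Below 0 were Rspo2 with Bambi (-0.338) and Lrp12 (-0.065), Rspo1 with Slc20a1 (-0.106), Frzb with Chmp2a (-0.606) and Axin2 with Ccdc86 (-0.295). Hand2 averaged only 9.90 ± 7.19 in KO maxillary arrays and 4.91 ± 5.20 in WT maxillary set 2, and Dlx6 15.6 ± 12.5 and 29.2 ± 5.08 (SD, n = 3). Their r over these arrays thus rests on signals near or below the level of the filter.

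Of 25 receptors and partners of these proteins, 23 were tested. Called were 3 in the Dlx5/6 mutant, 2 in the KO and 3 in WT mandibular against WT maxillary set 1. The shares of all genes were 3.16%, 1.26% and 3.56%. In the Dlx5/6 mutant 2 rose, the WNT receptor gene Ror1 (0.42 ± 0.07, limma adjusted p = 0.00123) and the glypican gene Gpc4 (0.41 ± 0.11, limma adjusted p = 0.049), and the glypican gene Gpc3 fell by 0.32 ± 0.05 (limma adjusted p = 0.000844). Gpc4 also rose in the KO maxillary branch, by 0.53 ± 0.11 (limma adjusted p = 0.0143), and so did Fzd1, a Frizzled gene, by 0.34 ± 0.08 (limma adjusted p = 0.0319). Against WT maxillary set 1 the KO change of Gpc4 was 0.25 and was not called (limma adjusted p = 0.169). In WT mandibular against WT maxillary set 1, Gpc3 (0.50) and Fzd1 (0.34) were higher and Ror1 (-0.45) was lower. Against WT maxillary set 2 these changes were 1.34 for Gpc3, 0.23 for Fzd1, which was not called (limma adjusted p = 0.0561), and -0.27 for Ror1. No tested Lgr gene, Lrp gene, Znrf3 or Kremen1 was called in these 3 comparisons. Lgr4 changed by 0.48 in the KO (limma adjusted p = 0.0776) and by 0.44 between the WT branches (limma adjusted p = 0.0718). With WT maxillary set 1 as control, 12 of the 23 were called in the KO, against 11.6% of all genes. They included Lgr4, Lrp4, Lrp5, Znrf3 and Kremen1. With WT maxillary set 2 as control, 6 of the 23 were called between the WT branches, against 11.5%. The median log2 change of the list was 0.04 in the Dlx5/6 mutant and 0.084 in the KO, beside -0.008 and -0.002 for all genes.

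Of 19 WNT ligand genes 14 were tested, and 0 were called in the Dlx5/6 mutant, in the KO maxillary branch or between the WT branches, by limma, against 3.16%, 1.26% and 3.56% of all genes. Of 11 other secreted modulators, such as Wif1 and Sostdc1, 7 were tested and 0 were called in these comparisons. With so few genes tested, counts of 0 lie near these shares. At an unadjusted p under 0.05 (limma) there were 2 ligand genes in the Dlx5/6 mutant (Wnt5a and Wnt7b), 3 in the KO (Wnt4, Wnt7a and Wnt9a) and 2 between the WT branches (Wnt5a and Wnt7b). For the other modulators there were 0 in the Dlx5/6 mutant, 1 in the KO (Sostdc1) and 1 between the WT branches (Wif1). Of all genes, 14.4%, 11.6% and 13.8% had such a p in these comparisons. With the other WT maxillary set as control, Wnt4 and Wnt6 were called in the KO, Wnt4, Wnt7b and Wnt10b between the WT branches, and Sostdc1 in both.

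Of 12 tested targets and feedback genes of canonical WNT signalling, 3 were called in the Dlx5/6 mutant, against 3.16% of all genes. In the KO 2 were called, against 1.26%. Among the 12, Apcdd1 had the largest change. It encodes a membrane protein that inhibits WNT signalling, and it read 166, 156 and 164 in KO maxillary arrays, against 343, 331 and 329.8 in WT maxillary set 2. It fell there by 0.93 ± 0.09 (limma adjusted p = 1.71e-06). In Dlx5/6 mutant mandibular arrays it read 288, 337 and 310.2, against 313, 263 and 267 in WT mandibular arrays, and it was not called. The Dlx5/6 effect minus the KO effect was 1.08 ± 0.13 for Apcdd1 (limma adjusted p = 1.87e-05). Ccnd1, which encodes cyclin D1, fell in both mutants, by 0.42 ± 0.07 in the Dlx5/6 mutant (limma adjusted p = 0.000904) and by 0.31 ± 0.07 in the KO (limma adjusted p = 0.032). Against WT maxillary set 1 the KO change of Ccnd1 was -0.14 and was not called (limma adjusted p = 0.24), while that of Apcdd1 was -0.80 and was. Myc (0.58 ± 0.12, limma adjusted p = 0.00548) and Tcf7l2 (0.54 ± 0.12, limma adjusted p = 0.0113), which encode transcription factors, rose in the Dlx5/6 mutant. The other tested members, Lef1 and Nkd1 among them, were not called in either mutant. At an unadjusted p under 0.05 (limma) there were 3 of the 12 in the Dlx5/6 mutant, the 3 called ones, against 14.4% of all genes. In the KO there were 6, namely Apcdd1, Ccnd1, Lef1 (-0.29), Myc, Tcf7l2 and Dact1, against 11.6% of all genes. With WT maxillary set 1 as control, 4 of the 12 were called in the KO (Lef1, Apcdd1, Myc and Znrf3), where 11.6% of all genes were called.

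Of 15 tested genes of the core pathway, Tcf7l1, which encodes a TCF transcription factor that mostly represses, rose by 0.43 ± 0.10 in the Dlx5/6 mutant (limma adjusted p = 0.0237) and was lower in WT mandibular than in WT maxillary set 1 (-0.51 ± 0.10, limma adjusted p = 0.00461) and than in set 2 (-1.29). Tcf7l1 was the only one of the 15 called in the Dlx5/6 mutant, against 3.16% of all genes. The same held in WT mandibular against WT maxillary set 1, against 3.56%. Of the 15, 0 were called in the KO maxillary branch by limma, against 1.26% of all genes. There 2 (Gsk3b and Tcf7l1) had an unadjusted p under 0.05, against 11.6% of all genes. With WT maxillary set 1 as control, 3 of the 15 (Ctnnb1, Tcf7l1 and Bcl9) were called in the KO, where 11.6% of all genes were called.

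**Figure D5:**
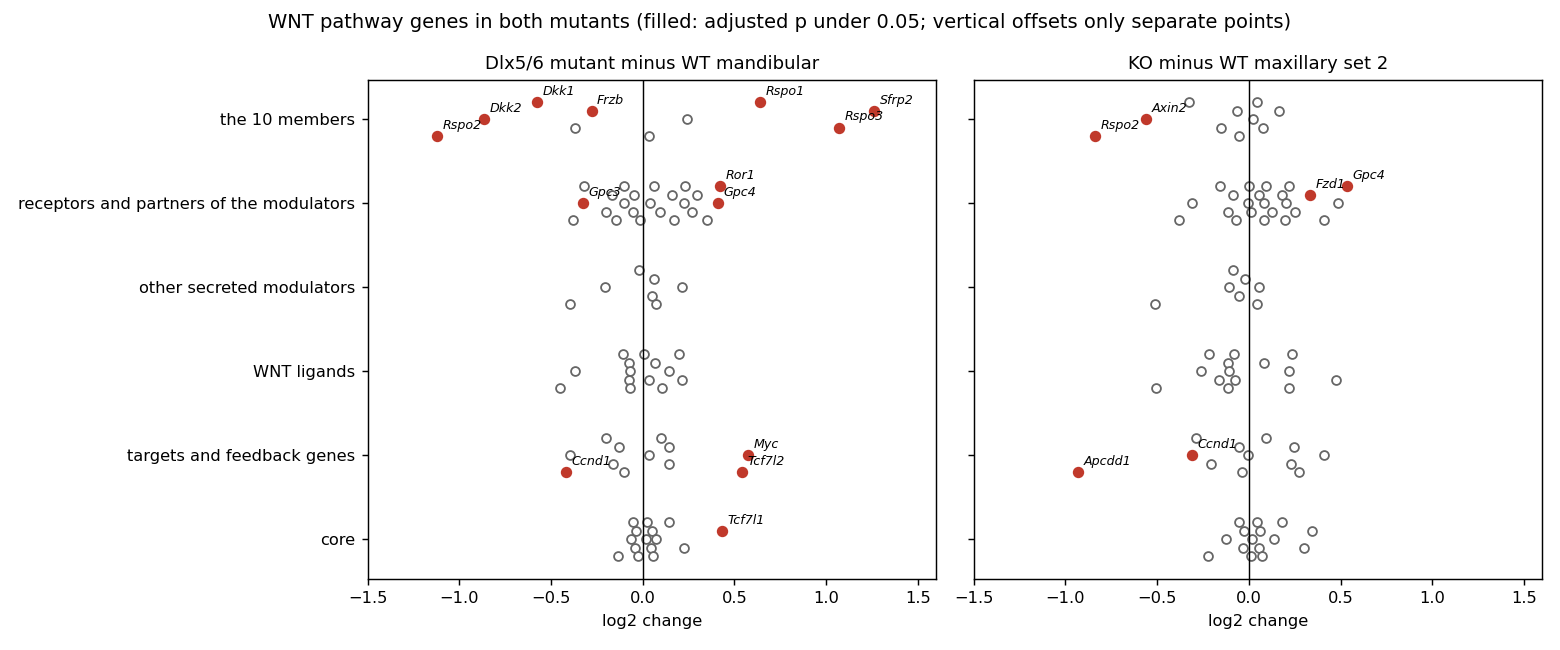
Log2 changes in the Dlx5/6 mutant mandibular branch (over WT mandibular) and in the KO maxillary branch (over WT maxillary set 2) for the 10 genes and 5 lists of other WNT pathway genes, 1 point per tested gene. Filled points are called at an adjusted p under 0.05. The WNT ligand and other secreted modulator rows have no filled point, and Apcdd1 (-0.93) is the lowest filled target in the KO.

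Markers of other tissues also differed between the groups, and their part in these results was not tested. In bulk tissue, fewer cells of a type and less RNA per cell cannot be told apart. Of all genes, 1.58% were called higher and 1.58% lower in the Dlx5/6 mutant, and 0.639% higher and 0.617% lower in the KO. In WT mandibular against WT maxillary set 1, 2.00% were called lower. The summed signal of 11 sensory neuron and glia genes was 623 to 688 in Dlx5/6 mutant mandibular arrays, 582 to 627 in WT mandibular arrays and 3067 to 3238 in WT maxillary set 1, and all 11 were lower in WT mandibular than in WT maxillary set 1. The sum was 1081 to 1116 in KO maxillary arrays, against 1347 to 1446 in WT maxillary set 2, with 3 of 11 lower. The summed signal of 10 macrophage genes was 619 to 645 in Dlx5/6 mutant mandibular arrays, against 385 to 409 in WT mandibular arrays, with 1 of 10 called higher, and 906 to 937 in KO maxillary arrays, against 577 to 653 in WT maxillary set 2, with 2 of 10 called higher. The 7 first arch mesenchyme genes summed to 6691 to 7134 in Dlx5/6 mutant mandibular arrays, against 5252 to 5796 in WT mandibular arrays, with 2 called higher and 1 lower, and to 5979 to 6319 in KO maxillary arrays, against 6749 to 7119 in WT maxillary set 2, with 1 higher and 2 lower. Dlx2 belongs to this list and is 1 of the 2 called lower in the KO. It averaged 3.36 there, against 422 in WT maxillary set 2, so part of the lower KO sum is Dlx2 itself.

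For 7 genes of arch mesoderm and muscle the sum was 214 to 267 in Dlx5/6 mutant mandibular arrays, against 350 to 359 in WT mandibular arrays, with Myf5 called lower. It was 310 to 337 in KO maxillary arrays, against 200 to 236 in WT maxillary set 2, with Lhx2 called higher. The 8 endothelial genes summed to 902 to 1050 in Dlx5/6 mutant mandibular arrays, against 906 to 1031 in WT mandibular arrays, with 0 called, and to 1249 to 1453 in KO maxillary arrays, against 922 to 1083 in WT maxillary set 2, with Emcn called higher. Of 9 epithelial genes 0 were called in either mutant. Their sum was 2585 to 2665 in Dlx5/6 mutant mandibular arrays, against 2492 to 2576 in WT mandibular arrays, and 2579 to 2647 in KO maxillary arrays, against 2229 to 2313 in WT maxillary set 2. The 6 erythroid genes, of which 0 were called in either mutant, summed to 25869 to 29455 in Dlx5/6 mutant mandibular arrays, against 23709 to 24665 in WT mandibular arrays, and to 27739 to 28713 in KO maxillary arrays, against 24842 to 27632 in WT maxillary set 2. The endothelial and the neuron and glia sums of the Dlx5/6 mutant overlapped those of WT mandibular, and the other sums given here did not overlap between a mutant and its WT group. Sums of other genes were not compared in this way, so how often such sums separate is not known. The sums add deposited signals, so the brightest genes of a list weigh most. None of these markers was listed at 0 on any array.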

How the data were processed

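The authors deposited linear intensity values from Affymetrix mouse arrays, 1 value for each probe set in each of 15 samples. Their software, summary method, background correction and genome build are not given in the sources used here. Without the lowest and highest 2%, the deposited intensities averaged 150.0 on every array, so they had been scaled before deposition. Array medians ran from 26.6 to 33.4, and each array correlated with its group mates at 0.984 to 0.989.

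Intensities were converted to log2(value + 32) and quantile normalized, since array medians on that scale differed by more than 0.1 (5.87 to 6.03). After removal of 64 control probe sets, 31643 were kept, each above the 40th percentile of signal on 3 arrays or more. A single symbol was listed for 34958 probe sets, several symbols for 932 and none for 9211, and 34754 were found in the RefSeq gene table, which changed 0 symbols. Probe sets with several symbols or none were not named.

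All comparisons were contrasts of 1 limma model (limma 3.58.1, R 4.3.3) over the 5 groups, with 10 residual degrees of freedom, an intensity trend, two-sided p-values and Benjamini-Hochberg adjustment over the kept probe sets, called under 0.05. The median SE was 0.148 log2 units (0.21 for the difference between the mutants' effects), limited by the small number of arrays. The procedure was tested on simulated data. Residuals of same-numbered arrays correlated between -0.10 and 0.08 over 30 pairs, so numbers were not read as pairs.

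The members, gene lists and tests were chosen with earlier results of these data known. Named genes were the 10 members, up to 4 called genes per WNT list and comparison by size of change, and the 3 genes most like each called member in pattern. Alternatives were other scalings, added constants, filters, variance models, a replicate block, array weights, a stricter threshold, another probe set per gene, the other WT maxillary set and leaving out each array. They were run for the 10 genes and for the counts over all probe sets. For the WNT and marker lists only the other WT maxillary set was tried. Protein sequences were not used here.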

Additional observations from a re-analysis of the deposited data

Results flagged for a closer look

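The difference between the Dlx5/6 effect (mutant mandibular over WT mandibular) and the KO effect (KO maxillary over WT maxillary set 2) passed its own limma test for 7 of the 19 probe sets, against 1.09% of all probe sets. Signed as the Dlx5/6 effect minus the KO effect, it was 1.41 for Sfrp2 (1448201_at), 1.40 for Rspo3 (1455607_at), 0.68 for Sfrp1 (1416594_at) and 0.60 for Axin2 (1436845_at). It was -0.74 for Dkk1 (1420360_at), -1.04 for the dimmer Dkk1 probe set (1458232_at) and -0.91 for Dkk2 (1420512_at). For Sfrp2, Rspo3, Sfrp1, Dkk2 and both Dkk1 probe sets the Dlx5/6 effect alone was called, and for Axin2 the KO effect alone. Leaving out 1 array ended the call for Sfrp1 in 10 of 12 cases (adjusted p 0.0558 to 0.146), for Axin2 (0.0657 to 0.121) and Dkk2 (0.0567 to 0.123) in 8 each, and for the dimmer Dkk1 probe set in 7 (0.0538 to 0.0978). The branch, the mutated genes and the array set differ together between these effects and cannot be told apart.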

How the results depend on the processing

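Of 33 called results of single probe sets of the 10 genes, tried under 650 alternatives in all, 545 kept and 105 lost the call, and 0 reversed. Calls in the other WNT lists were tried only with the other WT maxillary set as control. Whether they hold without single arrays was not tested. Another 15 alternatives added a call to an uncalled result, and in 74 an uncalled change switched sign. For the difference of the mutant effects, 3 of the 10 genes were called without the filter, 3 without the intensity trend and 2 at an adjusted p under 0.01, instead of 5. With each gene's next brightest probe set the number was 0 instead of 2 for the KO effect, 0 instead of 1 for the Dlx5/6 mutant against WT maxillary and 0 instead of 1 between the WT maxillary sets, which also gave 0 at 0.01. With the other WT maxillary set as control, the Dlx5/6 mutant against WT maxillary gave 3 instead of 1.

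Over all probe sets the counts without the intensity trend and at 0.01 were 219 and 194 for the difference of the mutant effects (346 in the report's setting), 452 and 394 for the Dlx5/6 effect (841), 172 and 152 for the KO effect (289), 125 and 107 for the Dlx5/6 mutant against WT maxillary (188) and 1634 and 1240 between the WT maxillary sets (2686). For WT mandibular against WT maxillary the count at 0.01 was 530 (835). The other WT maxillary set gave 3310 for the KO effect, 3318 for WT mandibular against WT maxillary and 3536 for the Dlx5/6 mutant against WT maxillary. Shifting arrays to a common median in place of quantile normalization left 56.5% of calls higher in WT mandibular against WT maxillary (42.6% before), 32.7% in the KO effect (50.9%) and 45.5% in the Dlx5/6 mutant against WT maxillary (34%). The causes of these shifts were not tested.

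Without single arrays the counts over all probe sets, and over the 10 genes, ran from 261 to 309 and 3 to 5 for the difference of the mutant effects, 499 to 653 and 5 to 6 for the Dlx5/6 effect, 175 to 222 and 2 to 2 for the KO effect, 607 to 691 and 6 to 7 for WT mandibular against WT maxillary, 119 to 142 and 1 to 1 for the Dlx5/6 mutant against WT maxillary, and 1782 to 2109 and 0 to 2 between the WT maxillary sets. Each count over all probe sets was below that of the report, and over the 10 genes a count rose above it without WT maxillary set 1 array 1 (7 instead of 6, WT mandibular against WT maxillary) and without WT maxillary set 2 array 2 (2 instead of 1, between the sets). The lowest counts came without Dlx5/6 mutant array 2 (499 and 119), WT maxillary set 2 array 1 (175) and WT maxillary set 2 array 2 (1782), and other counts more than 1.5 times under those of the report came without Dlx5/6 mutant array 3 (520.0), KO array 2 (187) and WT maxillary set 2 array 3 (179).

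The replicate number was also used as a block, although the labels do not say whether it pairs arrays. With this block, 4 of the 10 genes were called for the difference of the mutant effects, 7 for the Dlx5/6 effect and 2 for the KO effect. There were 6 for WT mandibular against WT maxillary, 1 for the Dlx5/6 mutant against WT maxillary and 1 between the WT maxillary sets. Over all probe sets the block gave 333, 779, 260, 787, 177 and 2475 in that order. It ended the calls of Axin2 (adjusted p = 0.0586) and Sfrp1 1416594_at (0.0646) in the difference and of Sfrp1 1460187_at in the Dlx5/6 effect (0.0512, limma), and no other call of a member.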

Other observations

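The WT maxillary sets, set 2 against set 1, also differed in other WNT pathway genes. Gpc3 (-0.84) and the Frizzled gene Fzd2 (-0.53) were lower in set 2, and Fzd4 (0.56) and Lrp4 (0.53) were higher. The ligand gene Wnt4 (-0.57), the secreted modulator gene Sostdc1 (-0.55) and the target gene Lef1 (-0.40) were lower in set 2, and Znrf3 (0.38) was higher. Of the core genes, Bcl9 (-0.61), Bcl9l (-0.43) and Ctnnb1 (-0.16) were lower and Tcf7l1 (0.77) was higher. All of these were called by limma, where 9.10% of all genes were called. These genes therefore have a level that depends on which WT maxillary set is used as control, as Axin2 does.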
